A study of Mus musculus with 12 samples.

Results

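The C/EBP family (CCAAT/enhancer-binding proteins) was followed through the differentiation of mouse myeloid progenitors by RNA-seq. The members were taken by gene symbol, Cebpa, Cebpb, Cebpd, Cebpe, Cebpg and Cebpz, and 6 of 6 were found among the 23309 genes of the deposited table. All 6 also had at least 1 FPKM (fragments per kilobase of transcript, scaled to library size) in at least 2 libraries and so stood among the 11516 genes tested. Bone marrow progenitors carrying CD117 on their surface had been immortalised with a retrovirus that makes HoxB8 fused to the estrogen receptor, so in every group estradiol (E2) held the cells immature and its withdrawal released them to mature in interleukin 3. Wild-type cells came from wild-type mice, and HMGN1-OE cells came from mice with a human HMGN1 transgene, which makes more of this nucleosome-binding protein. RNA was sequenced at 0, 36 and 96 h after E2 withdrawal, with 2 libraries in each of the 6 groups and 12 libraries in all. Both genotypes are lines made from cultured progenitors with the same HoxB8 construct, ages of the mice are not given in the sources used here, and the human transgene itself was not measured here. Mouse Hmgn1, which does not check the transgene, overlapped between the genotypes at each time, with 85.7 and 141 FPKM in wild-type and 201 and 97.6 FPKM in HMGN1-OE libraries at 0 h.

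C/EBP factors bind DNA as dimers through a basic region and a leucine zipper (bZIP). In granulocyte formation, Cebpa is known for the step from progenitor to granulocyte precursor, Cebpe for the maturation of neutrophils and eosinophils and their secondary granules, and Cebpb for granulocyte production on demand in infection. Cebpd is an acute-phase factor, Cebpg has the bZIP domain but no strong activation domain of its own, and Cebpz, which shares the name, is a nucleolar protein linked to ribosome assembly.

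The stretch of coding sequence that the bZIP members share most is shown beside the best match in Cebpz. It spans 75 bases and was found by a search over the coding sequences of GENCODE vM21. Each line is written 5′ to 3′ on the coding strand, and capitals mark the bases identical to Cebpa at that position.
Cebpa: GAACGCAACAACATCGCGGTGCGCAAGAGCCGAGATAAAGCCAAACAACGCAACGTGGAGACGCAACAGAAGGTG
Cebpb: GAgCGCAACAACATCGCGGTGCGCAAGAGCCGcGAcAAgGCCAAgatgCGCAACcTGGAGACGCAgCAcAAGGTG
Cebpd: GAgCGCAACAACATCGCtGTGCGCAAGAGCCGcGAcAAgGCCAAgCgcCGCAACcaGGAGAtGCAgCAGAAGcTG
Cebpe: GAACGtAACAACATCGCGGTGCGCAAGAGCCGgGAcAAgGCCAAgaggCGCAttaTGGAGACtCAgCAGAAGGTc
Cebpg: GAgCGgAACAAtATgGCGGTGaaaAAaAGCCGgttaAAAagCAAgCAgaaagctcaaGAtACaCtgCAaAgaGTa
Cebpz: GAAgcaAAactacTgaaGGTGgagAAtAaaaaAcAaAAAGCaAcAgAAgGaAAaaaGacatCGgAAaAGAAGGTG
Of the 75 bases, 64 were identical to Cebpa in Cebpb, 62 in Cebpd, 61 in Cebpe and 42 in Cebpg. The Cebpz line is only the best ungapped match in a coding sequence of 3159 bases. It held 40 identical bases, and over the 25 codons the best match of Cebpz shared 6 residues with Cebpa, against 22 in Cebpb and in Cebpe, 21 in Cebpd and 15 in Cebpg. In the 5 bZIP members the stretch lay 129 to 171 bases before the end of the coding sequence, and in Cebpz the best match lay 2739 bases before it.

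The genes lie on chromosome 7 (Cebpa and Cebpg), chromosome 2 (Cebpb), chromosome 16 (Cebpd), chromosome 14 (Cebpe) and chromosome 17 (Cebpz). In GENCODE vM21 all members but Cebpe overlap another annotated gene on the opposite strand. The library kit named in the labels does not mark strand, and a strand setting is not given in the sources used here, so reads shared with such a partner cannot be told apart. For Cebpz the partner is Cebpzos, listed under its older symbol 1110001A16Rik.

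The libraries had been scaled to spike-in RNA added per number of cells, and on this scale most genes were lower at 96 h. The median log2 change of all tested genes from 0 to 96 h was -1.75 for wild-type cells and -1.28 for HMGN1-OE cells. Changes are given as deposited unless stated, and those of the members also after each library was centred on its own median. In bulk RNA, fewer cells of a type and less RNA per cell cannot be told apart. All 16 listed neutrophil-lineage markers passed the filter, but they did not move together. S100a8 ranged from 451 to 1411 FPKM at 0 h and from 29366 to 83718 FPKM at 96 h, and Mpo from 540 to 4406 and from 13.5 to 406 FPKM. Markers of other lineages were present too. Basophil and mast cell markers (7 of 8 passed) summed to 461 to 1068 FPKM at 0 h, 953 to 2811 at 36 h and 132 to 532 at 96 h, and monocyte and macrophage markers (9 of 10 passed) to 101 to 354, 124 to 206 and 64.3 to 106 FPKM. Erythroid and megakaryocyte markers (5 of 7 passed) summed to 17.6 to 76.8, 24.1 to 54.2 and 2.66 to 16.8 FPKM, and lymphoid markers (2 of 6 passed) to 14.6 to 31.1, 40.6 to 77.0 and 3.13 to 13.6 FPKM. Their part in the results below was not tested. One wild-type library at 96 h had the lowest sum of all FPKM, 228955, against up to 1442570 elsewhere. Without it, the median log2 change of all tested genes from 0 to 96 h in wild-type cells was -1.32. The median difference of HMGN1-OE from wild-type cells at 96 h was 0.36 with this library and -0.05 without it. Some other results that change without it are given below. A call below means a limma adjusted p-value under 0.05 (Benjamini-Hochberg over the 11516 genes).

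Cebpa was the most abundant member at 0 and 36 h and fell at 96 h in both genotypes. Wild-type libraries had 119 and 158 FPKM at 0 h, 178 and 218 at 36 h, and 18.5 and 9.51 at 96 h. HMGN1-OE libraries had 115 and 88.2 FPKM at 0 h, 124 and 117 at 36 h, and 17.2 and 31.8 at 96 h. In each genotype, both libraries at 96 h lay far below all 4 earlier ones. From 0 to 96 h the level of Cebpa fell by 3.28 on the log2 scale in wild-type cells (standard error 0.56, limma adjusted p = 3.47e-08) and by 2.06 in HMGN1-OE cells (standard error 0.56, adjusted p = 0.000787). After centring, Cebpa still fell, by 1.43 (adjusted p = 0.000156) and by 0.75 (adjusted p = 0.00749). The HMGN1-OE call on the deposited scale was lost without one HMGN1-OE library at 96 h, with a change of -1.63 and an adjusted p of 0.0656.

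Cebpe, the maturation factor, was the most abundant member at 96 h. Wild-type libraries had 43.2 and 35.7 FPKM at 0 h, 95.4 and 102 at 36 h, and 134 and 42.7 at 96 h. HMGN1-OE libraries had 23.3 and 19.3 FPKM at 0 h, 72.5 and 58.8 at 36 h, and 87.8 and 97.8 at 96 h. Both libraries at 36 h lay above both at 0 h in each genotype, and the wild-type libraries at 96 h lay wide apart, one of them below the higher library at 0 h. By 96 h Cebpe had risen by 2.07 in HMGN1-OE cells (standard error 0.55, adjusted p = 0.00064), whereas the difference of 0.93 in wild-type cells was not called (standard error 0.55, adjusted p = 0.107). Without the wild-type library of lowest sum, the wild-type difference was 1.75 with an adjusted p of 0.00371. After centring, Cebpe rose in both genotypes, by 2.78 in wild-type (adjusted p = 8.77e-05) and by 3.39 in HMGN1-OE cells (adjusted p = 4.61e-05).

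Within its library, Cebpe stood at percentiles of 52.5 to 78.6 among tested genes at 0 h and of 95.2 to 96.9 at 96 h. A single scale factor per library does not change this rank. Cebpe also serves eosinophils, and eosinophil markers moved with time. Their summed level in wild-type libraries was 15.8 and 7.96 FPKM at 0 h, 61.4 and 15.6 FPKM at 36 h, and 2225 and 1041 FPKM at 96 h. The HMGN1-OE libraries summed to 28.1 and 19.5 FPKM at 0 h, 11.3 and 7.30 FPKM at 36 h, and 251 and 532 FPKM at 96 h, so that at 36 h both lay below both at 0 h, while Cebpe lay above. Of the 7 listed eosinophil markers 5 passed the filter, and the other two, Il5ra and Ccr3, were below 1 FPKM in all 12 libraries. Their part in the level of Cebpe was not tested.

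On the deposited scale Cebpb and Cebpd, the inducible members, changed less from 0 to 96 h than Cebpa and Cebpz, whereas after centring their changes were larger than those of Cebpa and Cebpz. Cebpb had 23.6 and 57.0 FPKM at 0 h, 68.3 and 41.7 at 36 h, and 42.5 and 36.1 at 96 h in wild-type libraries. In HMGN1-OE libraries it had 22.3 and 14.8 FPKM at 0 h, 33.2 and 31.8 at 36 h, and 36.3 and 51.1 at 96 h. The wild-type times overlapped throughout, whereas the HMGN1-OE times did not overlap and the levels at 96 h were the highest. From 0 to 96 h the log2 difference in Cebpb was 0.09 in wild-type cells (standard error 0.54, adjusted p = 0.88), and Cebpb rose by 1.20 in HMGN1-OE cells (standard error 0.54, adjusted p = 0.0392).

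Cebpd had 7.67 and 22.8 FPKM at 0 h, 27.2 and 13.9 at 36 h, and 23.8 and 10.7 at 96 h in wild-type libraries. In HMGN1-OE libraries it had 8.59 and 6.24 FPKM at 0 h, 11.6 and 11.3 at 36 h, and 17.1 and 20.4 at 96 h. As for Cebpb, only the HMGN1-OE libraries separated by time. For Cebpd the log2 difference from 0 to 96 h was 0.25 in wild-type cells (standard error 0.50, adjusted p = 0.641), and Cebpd rose by 1.24 in HMGN1-OE cells (standard error 0.50, adjusted p = 0.0219). The calls of Cebpb and Cebpd in HMGN1-OE cells were lost when any one of the 4 HMGN1-OE libraries at 0 or 96 h was left out, with adjusted p from 0.0631 to 0.223. That of Cebpb was also lost without any one of the 4 libraries at 36 h, with adjusted p from 0.0571 to 0.0677, and with the digit of the table columns as a replicate block (adjusted p = 0.0664). Without moderation the adjusted p was 0.0675 for Cebpb and 0.117 for Cebpd, and with no filter on low values limma gave 0.0799 and 0.148. After centring, both rose in both genotypes, Cebpb by 1.93 and 2.51 (adjusted p = 0.00052 and 0.000154) and Cebpd by 2.09 and 2.55 (adjusted p = 0.000429 and 0.000182) in wild-type and HMGN1-OE cells.

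Cebpg, the bZIP member without a strong activation domain, fell at 96 h. Wild-type libraries had 12.9 and 25.2 FPKM at 0 h, 24.5 and 24.0 at 36 h, and 4.51 and 2.03 at 96 h. HMGN1-OE libraries had 19.2 and 12.99 FPKM at 0 h, 16.9 and 15.8 at 36 h, and 4.96 and 6.33 at 96 h. Both libraries at 96 h lay below the 4 earlier ones in each genotype. Between 0 and 96 h Cebpg fell by 2.22 in wild-type cells (standard error 0.49, adjusted p = 1.63e-05) and by 1.35 in HMGN1-OE cells (standard error 0.49, adjusted p = 0.0114). Its fall was close to that of the median gene. After centring it fell by 0.37 in wild-type cells (adjusted p = 0.0108), and in HMGN1-OE cells the difference was -0.03 and was not called (adjusted p = 0.79). The HMGN1-OE call on the deposited scale was also lost without either of 2 HMGN1-OE libraries, one at 0 h (-1.08, adjusted p = 0.149) and one at 96 h (-1.20, adjusted p = 0.125).

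Cebpz, the nucleolar protein, fell at 96 h on both scales. Wild-type libraries had 48.3 and 94.6 FPKM at 0 h, 89.5 and 108 at 36 h, and 11.7 and 4.41 at 96 h. HMGN1-OE libraries had 75.04 and 51.1 FPKM at 0 h, 69.7 and 67.4 at 36 h, and 9.40 and 13.4 at 96 h. The libraries at 96 h again lay below all earlier ones. Between 0 and 96 h Cebpz fell by 3.05 in wild-type cells (standard error 0.54, adjusted p = 9.22e-08) and by 2.36 in HMGN1-OE cells (standard error 0.54, adjusted p = 6.37e-05), and after centring by 1.20 (adjusted p = 1.49e-05) and by 1.05 (adjusted p = 4.73e-05). Its antisense neighbour 1110001A16Rik (Cebpzos) was 7.30 and 19.4 FPKM at 0 h and 3.89 and 1.39 FPKM at 96 h in wild-type libraries, a fall of 1.93 on the log2 scale (adjusted p = 8.69e-05). After centring the difference in 1110001A16Rik was -0.08 (adjusted p = 0.637).

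**Figure D1:**
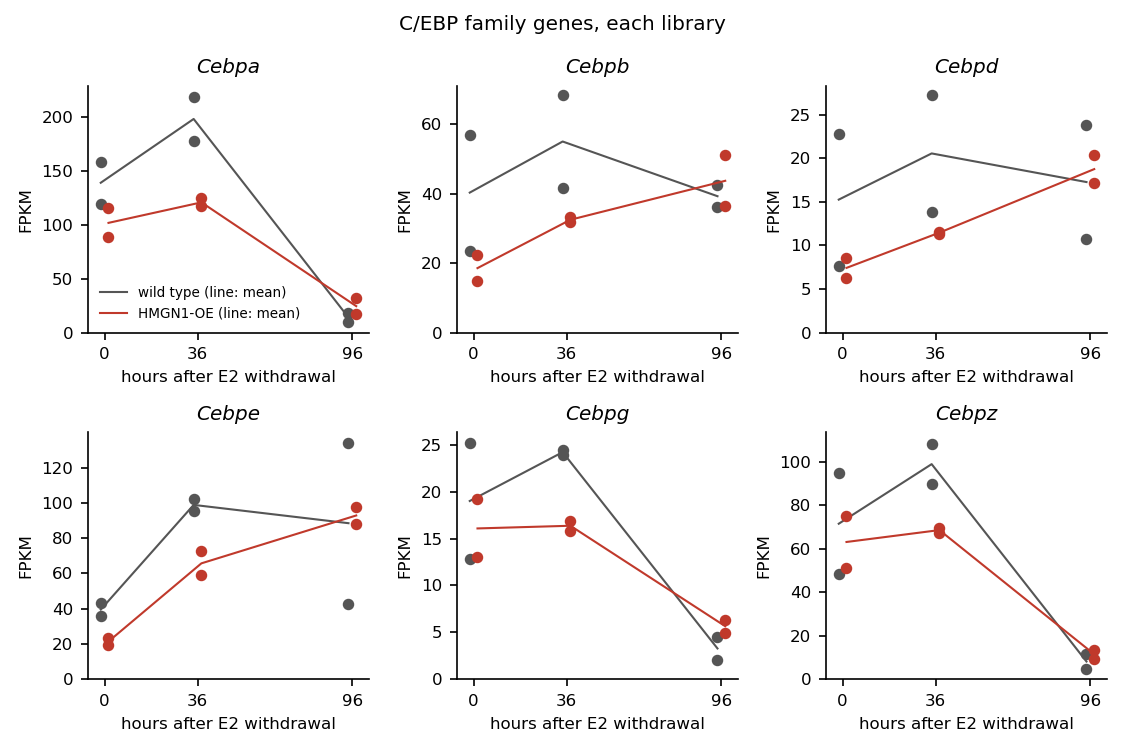
FPKM (vertical axis, from 0, with its own scale for each gene) of the 6 C/EBP family genes against hours after E2 withdrawal, with 1 point per library, 2 libraries per group, and lines through the group means; points of the genotypes are shifted sideways for legibility. Cebpa, Cebpg and Cebpz dropped at 96 h in both genotypes, and Cebpe, highest of the members at 96 h, had wild-type libraries of 134 and 42.7 FPKM at that time.

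Across all genes, the calls from 0 to 96 h were uneven in direction. In wild-type cells 77.2% of tested genes were called lower and 4.31% higher, and 3 of the 6 members were called lower and 0 higher. In HMGN1-OE cells 62.4% were called lower and 5.08% higher, and 3 members were called lower and 3 higher. Without one HMGN1-OE library at 0 h 3 members were called in HMGN1-OE cells, and without one at 96 h 2 were. After centring, 33.8% of genes were called lower and 36.5% higher in wild-type cells, and 32.5% lower and 30.9% higher in HMGN1-OE cells. On the centred scale Cebpa, Cebpg and Cebpz were lower and Cebpb, Cebpd and Cebpe higher in wild-type cells, and HMGN1-OE cells gave the same directions with 5 members called, Cebpg being the one that was not.

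**Figure D2:**
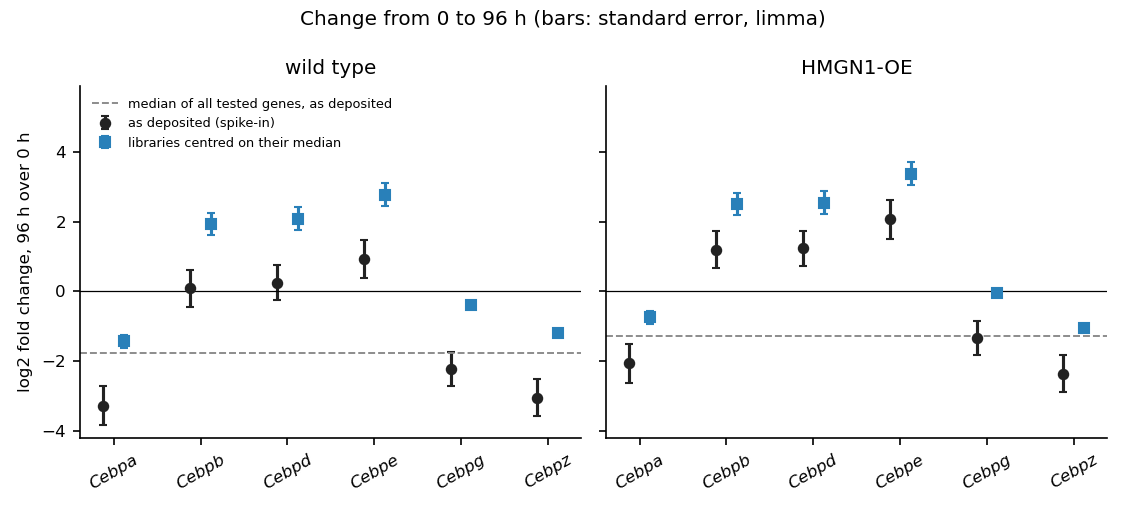
Log2 fold change of each C/EBP family gene at 96 h over 0 h, on the log2(FPKM + 1) scale (vertical axis), for wild-type cells (left) and HMGN1-OE cells (right), as deposited (circles) and with libraries centred on their median (squares); bars are standard errors from limma and the dashed line is the median of all 11516 tested genes as deposited. The circles of Cebpb, Cebpd and Cebpe lay above the dashed line in both genotypes and those of Cebpa and Cebpz below it.

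The fall was placed between 36 and 96 h. In this interval Cebpa, Cebpg and Cebpz were called lower in both genotypes, with log2 changes of -3.79, -2.63 and -3.58 in wild-type cells and -2.32, -1.39 and -2.51 in HMGN1-OE cells. The remaining members had differences of -0.44 (Cebpb), -0.26 (Cebpd) and -0.38 (Cebpe) in wild-type cells and 0.40, 0.66 and 0.50 in HMGN1-OE cells, none of them called. Over all genes, 86.3% were called lower and 3.15% higher in wild-type cells, and 64.9% lower and 4.02% higher in HMGN1-OE cells. After centring, Cebpa changed by -1.47 and -0.97 and Cebpz by -1.26 and -1.16 in wild-type and HMGN1-OE cells, all called. On that scale Cebpb, Cebpd and Cebpe were called higher in this interval in both genotypes, by 1.74 to 2.06. The centred background was 38.2% higher and 33.7% lower in wild-type cells and 28.6% higher and 32.3% lower in HMGN1-OE cells. Cebpg was the member whose call in HMGN1-OE cells was lost on centring (-0.05, adjusted p = 0.689). This call was also lost without either HMGN1-OE library at 36 h (adjusted p = 0.0808 and 0.0585) and without one at 96 h (adjusted p = 0.109), with changes of -1.24 to -1.44. The difference in Cebpe in wild-type cells was 0.44 without the library of lowest sum at 96 h and -1.19 without the other one, so its direction depended on the library. With only the groups compared, Cebpd was called higher in HMGN1-OE cells (0.66, adjusted p = 0.00794).

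In the first 36 h no member was called in either genotype, at a background of 0.617% of genes called in wild-type cells and 1.8% in HMGN1-OE cells. The member with the largest difference was Cebpe. It was 1.31 higher on the log2 scale in wild-type cells (standard error 0.55, unadjusted p = 0.0181 and adjusted p = 0.589, limma) and 1.57 higher in HMGN1-OE cells (standard error 0.55, unadjusted p = 0.00445 and adjusted p = 0.184, limma). After centring the differences in Cebpe were 0.83 and 1.54, with neither called. Among the 11516 tested genes, Cebpe ranked 79th by this difference in wild-type cells and 70th in HMGN1-OE cells. Both libraries at 36 h lay above both at 0 h for 2 members in wild-type cells (Cebpa and Cebpe), where 25.7% of all genes did so. They did so for 4 members in HMGN1-OE cells (Cebpa, Cebpb, Cebpd and Cebpe), where 14.3% of all genes did so.

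The make-up of the family was compared by ratios of FPKM values within a library. A single scale factor per library cancels in such a ratio, whereas a loess correction, which depends on the level of a gene, need not. Of the summed FPKM of the 5 bZIP members, Cebpa made up 52.9% to 62.3% in the 4 libraries at 0 h, 45.2% to 54.5% at 36 h and 8.26% to 15.3% at 96 h. Cebpe made up 11.9% to 20.9%, then 24.3% to 28.0%, then 42.3% to 60.0%. The 4 libraries of each time, both genotypes together, did not overlap those of the next time for Cebpe. For Cebpa the times 0 and 36 h overlapped, while every library at 96 h lay far below.

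Cebpb made up 10.4% to 19.1% of the sum at 0 h, 10.4% to 17.4% at 36 h and 19.0% to 35.7% at 96 h. Cebpd went from 3.71% to 7.64% at 0 h and 3.47% to 6.92% at 36 h to between 9.81% and 10.6% at 96 h, a narrow range. Cebpg held 6.22% to 10.2% at 0 h, 5.995% to 6.75% at 36 h and 2.01% to 3.05% at 96 h. The sum itself ranged from 142 to 299 FPKM at 0 h, from 235 to 399.8 at 36 h and from 101 to 223 at 96 h.

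**Figure D3:**
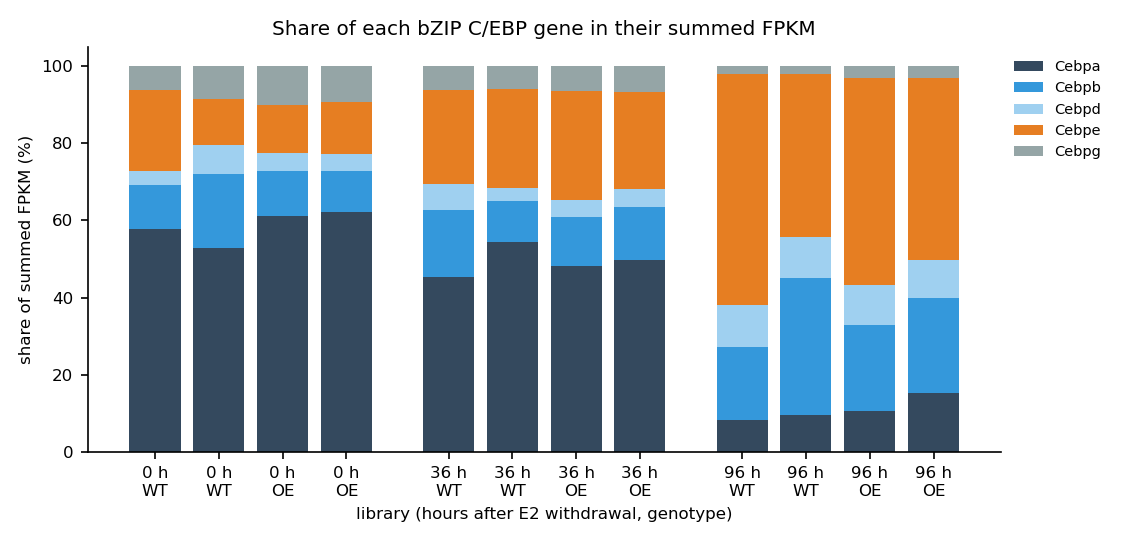
Share of each bZIP C/EBP gene in their summed FPKM (vertical axis, percent), 1 bar per library, ordered by hours after E2 withdrawal and by genotype (WT, wild type; OE, HMGN1-OE). Cebpa held 52.9% to 62.3% at 0 h and 8.26% to 15.3% at 96 h, and Cebpe 42.3% to 60.0% at 96 h, in both genotypes.

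Taken as ratios, Cebpe was 0.203 to 0.361 times the level of Cebpa at 0 h, 0.469 to 0.583 times at 36 h and 3.07 to 7.27 times at 96 h. At 96 h the ratios were 7.27 and 4.49 in wild-type cells, against 5.11 and 3.07 in HMGN1-OE cells, and the genotypes overlapped. Cebpb was 0.168 to 0.360 times Cebpa at 0 h and 1.60 to 3.79 times at 96 h, and Cebpd 0.0642 to 0.144 times at 0 h and 0.639 to 1.29 times at 96 h. In contrast, Cebpz kept a ratio to Cebpa of 0.404 to 0.652 at 0 h, 0.496 to 0.576 at 36 h and 0.421 to 0.635 at 96 h, ranges that overlapped at all times. The ratio of Cebpd to Cebpb was 0.325 to 0.422 at 0 h and 0.298 to 0.559 at 96 h, which also overlapped.

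By mean FPKM in wild-type cells the order at 0 h was Cebpa (139 ± 27.4, SD, n = 2), Cebpz (71.4 ± 32.7), Cebpb (40.3 ± 23.6), Cebpe (39.4 ± 5.31), Cebpg (19.0 ± 8.70) and Cebpd (15.2 ± 10.7). Libraries of neighbours overlapped for Cebpz and Cebpb, for Cebpb and Cebpe, and for Cebpg and Cebpd. Within a library, Cebpz was above Cebpb and Cebpg above Cebpd in 2 of 2 libraries, and Cebpb was above Cebpe in 1 of 2. At 96 h the order was Cebpe (88.4 ± 64.6), Cebpb (39.3 ± 4.56), Cebpd (17.3 ± 9.21), Cebpa (14.0 ± 6.32), Cebpz (8.07 ± 5.17) and Cebpg (3.27 ± 1.76), and all neighbours from Cebpd downward overlapped between libraries, although each was above the next within 2 of 2 libraries. In HMGN1-OE cells Cebpa came first at 0 h (102 ± 19.0) and Cebpe at 96 h (92.8 ± 7.08), each apart from its neighbour. At 36 h Cebpa came first in both genotypes, and Cebpz and Cebpe overlapped behind it, with Cebpz above Cebpe in 1 of 2 libraries of each genotype.

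The genotypes were then compared at each time, the question being whether HMGN1 overexpression altered the family. No member was called at 0, 36 or 96 h by limma, and 0 of 6 had an unadjusted p under 0.05 at any of the times. After centring, 1 member had an unadjusted p under 0.05 at 0 h and 1 at 96 h, again with 0 called. Over all genes the share called was 1.36% at 0 h, 1.26% at 36 h and 0.669% at 96 h. With 2 libraries against 2, an exact permutation test of a single gene cannot go below p = 0.333.

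At 0 h, 3 members had both of their HMGN1-OE values under both wild-type values, where 4.67% of all genes lay below in this way and 3.26% above. The log2 differences were -0.44 for Cebpa, -0.98 for Cebpb and -0.86 for Cebpe, with standard errors of 0.54 to 0.56 and adjusted p of 1.0. Cebpd differed by -0.79, Cebpg by -0.18 and Cebpz by -0.13, with overlapping libraries. After centring the 6 differences at 0 h ran from -0.84 to 0.0061. At 36 h the HMGN1-OE values were under the wild-type values for 6 of 6 members, with log2 differences from -0.72 to -0.52. At that time 84.4% of all genes lay below and 1.18% above, and the median of all genes was -0.54. At 96 h only Cebpg had both HMGN1-OE libraries above both wild-type libraries, against 10.2% of all genes above and 2.97% below.

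The change with time was compared between genotypes by the interaction in limma. No member was called from 0 to 36 h (0.504% of all genes called) or from 0 to 96 h (0.677% called). From 0 to 96 h the interaction was positive for all members, 1.22 for Cebpa, 1.11 for Cebpb, 0.99 for Cebpd, 1.14 for Cebpe, 0.87 for Cebpg and 0.69 for Cebpz, with standard errors of 0.69 to 0.79 and adjusted p of 0.81 for each. The median of all genes was 0.51, or 0.07 without the wild-type library of lowest sum at 96 h. After centring the interactions of the members were 0.15 to 0.68, none called. Thus the rises of Cebpb, Cebpd and Cebpe that were called in HMGN1-OE but not in wild-type cells were not shown to differ between the genotypes.

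Genes that work with or downstream of the family were described from 7 lists by their counts, with no test of a list. The late granule targets of C/EBPε include secondary granule proteins of neutrophils and the eosinophil granule genes Prg2, Prg3 and Epx. From 0 to 96 h, 19 of 22 were called higher and 2 lower in wild-type cells, and 20 higher and 1 lower in HMGN1-OE cells, against 4.31% and 5.08% of all genes called higher. Mmp9 passed the filter only through the libraries at 96 h, and without it 18 and 19 of 21 were called higher. The median log2 change was 5.67 and 5.44. After centring, 20 of 22 were called higher and 0 lower in each genotype, and 19 of 21 higher without Mmp9. Of all genes, 36.5% and 30.9% were then called higher and 33.8% and 32.5% lower. Lactoferrin (Ltf), an iron-binding granule protein, was 15.9 and 7.19 FPKM at 0 h and 2040 and 1033 FPKM at 96 h in wild-type libraries. Prg2, the eosinophil major basic protein, rose by 7.77, and the cystatins Stfa2 and Stfa3 by 7.52 and 7.10. In HMGN1-OE cells the largest rises were in Chi3l3 (6.90), S100a9 (6.76), S100a8 (6.75) and Cd177 (6.52).

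Mmp8, a granule collagenase, changed by -1.23 in wild-type cells and -2.03 in HMGN1-OE cells, and was singled out after its values were seen. Its wild-type libraries overlapped between the times, with 55.7 and 204 FPKM at 0 h and 33.4 and 60.4 FPKM at 96 h. So was S100a9, which was counted as lower in wild-type cells although its libraries at 96 h were listed at 0.0511 and 26546 FPKM. Its calls against this group rest on the library listed near 0 and are not used further.

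In the first 36 h few late granule genes were called higher. In HMGN1-OE cells, where Cebpe went from 23.3 and 19.3 to 72.5 and 58.8 FPKM, 11 of 22 were called lower and 0 higher, where 129 of all 11516 genes were called lower and 78 higher. The log2 changes were -3.62 for Stfa2, -3.39 for Camp, an antimicrobial peptide precursor, -3.33 for S100a9 and -3.21 for Ngp. In wild-type cells 2 were called lower (Stfa3 with -3.09 and Ltf with -2.12) and 1 higher, Prg3, whose libraries at 36 h were apart at 10.7 and 0.871 FPKM, where 30 of all genes were called lower and 41 higher. After centring, 1 gene of the list was called in HMGN1-OE cells and 0 in wild-type cells, where 15 and 1 of all genes were called.

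Early granulocyte targets of C/EBPα changed in both directions on the deposited scale. This list of 18 tested genes holds Cebpd and Cebpe themselves, so its count is not independent of the members. From 0 to 96 h, 8 were called higher and 6 lower in wild-type cells, and 13 higher and 4 lower in HMGN1-OE cells. Of all genes 4.31% were called higher and 77.2% lower in wild-type cells, and 5.08% and 62.4% in HMGN1-OE cells. After centring, 12 were called higher and 6 lower in wild-type cells, and 13 higher and 1 lower in HMGN1-OE cells, beside 36.5% higher and 33.8% lower, and 30.9% and 32.5%, of all genes. The primary granule genes Ctsg and Mpo fell in wild-type cells, with log2 changes of -6.79 for Ctsg (cathepsin G) and -6.21 for Mpo (myeloperoxidase), while the lysozymes Lyz1 and Lyz2 rose by 4.74 and 4.69. In HMGN1-OE cells Fcnb, a secreted lectin, rose by 6.15, Lyz2 by 5.35 and Lyz1 by 5.34, and Ctsg fell by 4.09. Elane, also a primary granule protease, was lower at 96 h than at 0 h by 3.46 in wild-type cells (adjusted p = 6.32e-08) and higher by 1.78 in HMGN1-OE cells (adjusted p = 0.00679). In both genotypes it was highest at 36 h, with 2864 and 1109 FPKM in wild-type and 1772 and 1260 FPKM in HMGN1-OE libraries. Mpo in HMGN1-OE libraries was also highest at 36 h, with 4147 and 2451 FPKM. From 0 to 96 h Mpo fell by 1.45 in HMGN1-OE cells, a call lost after centring (-0.13, adjusted p = 0.869). From 0 to 36 h, 5 of the 18 were called higher and 0 lower in HMGN1-OE cells, where 78 of all 11516 genes were called higher and 129 lower. In wild-type cells 0 were called. After centring, 1 was called higher in HMGN1-OE cells, where 15 of all genes were called, and 0 in wild-type cells.

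Some genes of these lists were called between the genotypes. At 0 h Elane (neutrophil elastase) was lower in HMGN1-OE libraries (106 and 74.0 FPKM) than in wild-type libraries (409 and 867 FPKM), with a log2 difference of -2.74 (standard error 0.60, adjusted p = 0.00066). Mpo differed by -2.37 (standard error 0.62, adjusted p = 0.0109). At 96 h Elane, Ctsg and Mpo were higher in HMGN1-OE cells, by 2.50, 2.48 and 2.39, with libraries of the genotypes overlapping for Mpo. The wild-type library of lowest sum had 21.7, 20.6 and 13.5 FPKM of these genes, and the other wild-type library 129, 107 and 116 FPKM. HMGN1-OE libraries had 168 and 554, 151 and 479, and 114 and 406 FPKM. The size of these differences thus depends on the library of lowest sum. In the same comparison Prg2, Epx and Mmp9 were lower, with -2.19, -2.14 and -2.07. At 36 h, 6 of the 22 late granule targets were called lower in HMGN1-OE cells, against 1.26% of all genes called in either direction, with log2 differences of -2.79 for Mmp8, -2.62 for S100a9, -2.27 for Camp and -2.12 for Ngp. Irf8, a factor of monocyte fate, was also lower at 36 h (-1.49, adjusted p = 0.0412). The change from 0 to 96 h differed between the genotypes by the interaction for 4 early targets, all higher in HMGN1-OE cells (Elane 5.23, Mpo 4.76, Prtn3 3.56 and Fcnb 3.00), against 0.677% of all genes called. For Prtn3 and Fcnb too, the wild-type library of lowest sum was the lower at 96 h, with 51.5 and 66.4 against 299 and 271 FPKM. Among late targets the interaction was called lower for Epx (-3.66), Prg2 (-3.60) and Mmp9 (-2.24) and higher for S100a9, which is set aside as above. From 0 to 36 h it was called lower for Prg2 (-3.50) and Epx (-2.35). The wild-type libraries at 36 h were apart for Prg2, at 49.2 and 5.80 FPKM. After centring, none of the genotype differences or interactions named here was called.

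All 34 tested nucleolar partners of Cebpz, genes of ribosome assembly, were called lower at 96 h in both genotypes and on both scales. Of all genes, 77.2% and 62.4% were called lower in wild-type and HMGN1-OE cells as deposited, and 33.8% and 32.5% after centring. Their median change was -3.86 for wild-type cells and -2.88 for HMGN1-OE cells, below that of Cebpz itself. In wild-type and HMGN1-OE cells, Npm1 (nucleophosmin) changed by -5.10 and -3.83, and Gnl3 (nucleostemin) by -4.86 and -3.65. Amino acid stress targets shared by C/EBPγ and ATF4 had median changes of -1.81 and -1.38, beside -1.75 and -1.28 for all genes. Of 23 tested, 16 were called lower and 1 higher in wild-type cells and 13 lower and 2 higher in HMGN1-OE cells, beside 77.2% and 62.4% of all genes called lower and 4.31% and 5.08% higher. Without one HMGN1-OE library at 0 h 6 of these genes were called in HMGN1-OE cells, and without one at 96 h 7 were, and with only the groups compared in the fit 11 were called in wild-type cells. After centring, 7 were called higher and 9 lower in wild-type cells, and 9 higher and 7 lower in HMGN1-OE cells, beside 36.5% higher and 33.8% lower, and 30.9% and 32.5%, of all genes. In the comparison of the genotypes at 96 h, the median of the list was 0.90, that of the nucleolar partners 0.91 and that of all genes 0.36. Without the wild-type library of lowest sum, the median of all genes was -0.05. Of the 23 genes, 1 was called higher in HMGN1-OE cells at 96 h, against 0.669% of all genes called, and 0 after centring. Psat1 and Shmt2, of serine and glycine synthesis, changed by -4.29 and -4.08 in wild-type cells.

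Of the inflammatory targets of C/EBPβ and C/EBPδ, 15 of 25 passed the filter. Of these 6 were called higher and 1 lower in wild-type cells, and 7 higher and 0 lower in HMGN1-OE cells. Cxcl2, Il1b and Orm1 passed the filter only through the libraries at 96 h, so they had to be higher there to be tested. Without these 3 genes, 3 of 12 were called higher and 1 lower in wild-type cells, and 4 higher and 0 lower in HMGN1-OE cells. With only the groups compared in the fit, 3 of the 15 were called in wild-type cells. Saa3, an acute-phase protein, rose by 1.14 in wild-type cells and by 3.44 in HMGN1-OE cells, and Tlr4, the endotoxin receptor, fell by 1.95 in wild-type cells. As deposited, 4.31% and 5.08% of all genes were called higher. After centring, 14 and 13 of the 15 were called higher and 0 lower, where 36.5% and 30.9% of all genes were called higher and 33.8% and 32.5% lower, and without the 3 genes 11 and 10 of 12 were called higher. On that scale the difference in Tlr4 was -0.10 and not called in wild-type cells, and Tlr4 was called higher, by 0.44, in HMGN1-OE cells. Between the genotypes, 1 of the 15 was called higher in HMGN1-OE cells at 96 h, against 0.669% of all genes called. The interaction from 0 to 96 h was called higher for 1, against 0.677% of all genes called. After centring, 0 were called in either comparison.

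Of 28 tested partners and regulators of the family, 19 were called lower and 2 higher in wild-type cells and 15 lower and 1 higher in HMGN1-OE cells, where 77.2% and 62.4% of all genes were called lower. After centring, 11 were called higher and 6 lower in wild-type cells and 12 higher and 8 lower in HMGN1-OE cells, beside 36.5% higher and 33.8% lower, and 30.9% and 32.5%, of all genes. Batf3 passed the filter only through the libraries at 96 h, and without it 1 of 27 was called higher in wild-type cells and 0 in HMGN1-OE cells as deposited, and 10 and 11 after centring. Without one HMGN1-OE library at 0 h 9 of the list were called in HMGN1-OE cells, and without one at 96 h 8 were. With only the groups compared in the fit, 11 were called in wild-type cells. Ddit3 (CHOP), a bZIP partner that blocks C/EBP binding, was 10.9 and 17.4 FPKM at 0 h and 13.5 and 7.31 FPKM at 96 h in wild-type libraries and was not called as deposited. After centring, Ddit3 was called higher in both genotypes, by 1.42 and 0.64. Trib2, an adaptor for the degradation of C/EBPα, changed by -2.82 and -3.02 in wild-type and HMGN1-OE cells, although neither was called after centring. Its relative Trib1 rose by 1.44 in wild-type cells (standard error 0.41, adjusted p = 0.000946), and the difference of 0.78 in HMGN1-OE cells was not called. Rfwd2 (Cop1), the ubiquitin ligase that these adaptors recruit, fell by 1.35 in wild-type cells, and the difference of -0.94 in HMGN1-OE cells was not called. After centring, Rfwd2 was called higher in both genotypes, by 0.50 and 0.38.

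Among myeloid transcription factors that act above or beside the family, 11 of 22 were called lower and 5 higher in wild-type cells and 9 lower and 4 higher in HMGN1-OE cells, beside 77.2% lower and 4.31% higher, and 62.4% and 5.08%, of all genes. Klf4, Rara and Rxra passed the filter only through the libraries at 96 h, and without them 2 and 3 of 19 were called higher. After centring, 12 were called higher and 5 lower in wild-type cells and 12 higher and 6 lower in HMGN1-OE cells, where 36.5% and 30.9% of all genes were called higher and 33.8% and 32.5% lower. Without Klf4, Rara and Rxra the centred counts were 9 higher and 5 lower of 19 in wild-type cells and 9 higher and 6 lower in HMGN1-OE cells. With only the groups compared in the fit, 8 of the list were called in wild-type cells as deposited. The progenitor factors Sox4 and Myb changed by -4.93 and -4.66 in wild-type and by -4.73 and -3.47 in HMGN1-OE cells. Id2, an inhibitor of helix-loop-helix factors, rose by 4.45 in wild-type cells and 4.28 in HMGN1-OE cells.

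**Figure D4:**
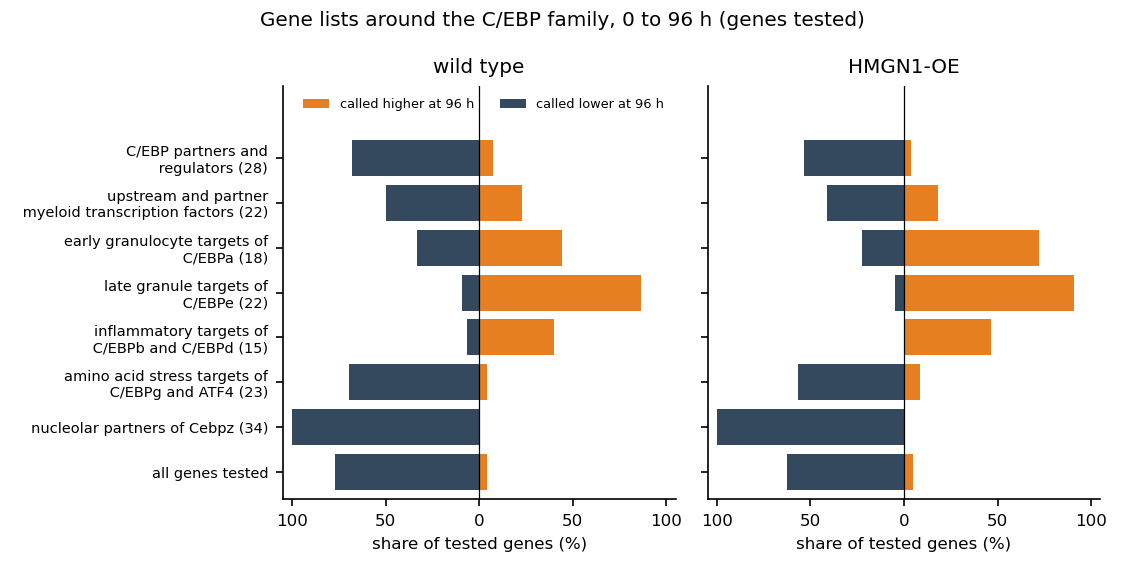
Share of tested genes (horizontal axis, percent) called higher (right) and lower (left) at 96 h over 0 h by limma in 7 gene lists around the C/EBP family and in all 11516 tested genes, for wild-type cells (left panel) and HMGN1-OE cells (right panel); the number of tested genes of each list stands in brackets. All 34 nucleolar partners were called lower, while 19 and 20 of the 22 late granule targets were called higher.

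The genes whose pattern was most like that of each member were taken by Pearson correlation of centred log2 values over the 12 libraries, among 8906 genes with a mean of at least 5 FPKM. The libraries share their times of collection, so the values are given as a description. The closest to Cebpa were Mrps24 (r = 0.98), Pgrmc2, Tmem238, Mrps30 and Fntb. The closest to Cebpz were Ndufs1, Pes1, Ndufa10, Cirh1a and Otud4, with r = 0.998 for each. Mrps24, a mitochondrial ribosomal protein, ranged from 48.8 to 93.2 FPKM at 0 h and from 4.95 to 18.6 FPKM at 96 h, and Pes1, a ribosome assembly factor, from 88.0 to 175 and from 6.93 to 23.1 FPKM.

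Closest to Cebpe were Agtpbp1, Ppm1a, Megf9, Ltb4r1 and Fcnb (r = 0.98 for each). As deposited, the closest of them, Agtpbp1, ranged from 9.85 to 19.2 FPKM at 0 h and from 4.08 to 10.5 FPKM at 96 h, and Ppm1a from 31.8 to 56.8 and from 11.1 to 25.2 FPKM, so that the times overlapped for Agtpbp1 and Ppm1a was lower at 96 h. Ltb4r1, the leukotriene B4 receptor, ranged from 3.02 to 8.36 FPKM at 0 h and from 45.3 to 93.6 FPKM at 96 h. Closest to Cebpb were Il6ra, Fam20c, Rcbtb2, Cd300a and Kctd12 (r = 0.99 for each), and closest to Cebpd were Cdc42ep3, Pram1, 4632428N05Rik, Stard3 and Cfp (r from 0.993 to 0.995). As deposited, the closest to Cebpd, Cdc42ep3, ranged from 10.3 to 29.1 FPKM at 0 h and from 11.8 to 25.2 FPKM at 96 h, and Stard3 from 11.2 to 28.6 and from 7.20 to 15.3 FPKM, so that both overlapped between the times. Cfp (properdin), a complement factor, ranged from 3.65 to 22.0 FPKM at 0 h and from 56.5 to 71.4 FPKM at 96 h. Cebpg had less close neighbours, Abcc1, Gsto1, Gpt2, Il15ra and Dhdh (r from 0.85 to 0.87).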

How the data were processed

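RNA-seq libraries from wild-type and HMGN1-OE cells (12 libraries, 6 groups of 2) were analysed from a table of FPKM values deposited by the authors. Per the study's methods, RNA was taken from equal numbers of cells with ERCC spike-in RNA, and the values were normalised by loess to the spike-ins. The submitters' processing notes name HISAT, Cufflinks 2.0.0 and mm9, whereas the study's methods name another aligner. Depth is unknown, so no counting interval is given. The table also holds 92 spike-in rows, which were left out of tests.

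Columns were assigned to groups by name. Of 23309 genes, the 11516 reaching 1 FPKM in 2 or more libraries were tested on log2(FPKM + 1), where changes of low genes come out too small, with R 4.3.3 and limma 3.58.1 (trend, 6 group means, all 12 libraries, moderated two-sided test, Benjamini-Hochberg). limma took each gene's variance from the trend over expression, so a p-value does not reflect the spread seen for that gene alone. The study calls its libraries biological duplicates, and the labels do not say what separates them, so p-values measure only the spread between these libraries. The same fit was made after centring each library on its median over tested genes. The fit was also run on simulated data, with an outcome that is not given here.

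The text names the 6 members, at most 4 called genes per list and comparison with the largest change, Ddit3, Trib1, Trib2, Cop1 and Cebpzos, and the 5 genes most like each member. Members and lists were chosen with earlier results of these data known. Of the list entries, 3 were not matched in the table (Azu1, Noc2l and Ly6g). Coding sequences came from GENCODE vM21, whose build is not mm9, so no coordinates are given. Alternatives were the pseudocount, filters, scaling, variance model, samples in the fit and each library left out, and, chosen after seeing the data, a replicate block on the digit ending each column name and list counts limited to genes that passed the filter at 0 and 36 h.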

Additional observations from a re-analysis of the deposited data

Results flagged for a closer look

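Cebpg differed between the genotypes in opposite directions at 36 and 96 h. At 36 h both HMGN1-OE libraries (16.9 and 15.8 FPKM) lay below both wild-type libraries (24.5 and 24.0 FPKM), a log2 difference of -0.54. At 96 h both HMGN1-OE libraries (4.96 and 6.33 FPKM) lay above both wild-type libraries (4.51 and 2.03 FPKM), a log2 difference of 0.69. Neither difference was called by limma, and the difference between the 2 times was not tested. The median of all genes was -0.54 at 36 h and 0.36 at 96 h, and after centring the differences in Cebpg were 0.04 and 0.29. Without the wild-type library of lowest sum, the median of all genes at 96 h was -0.05.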

How the results depend on the processing

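Depth is unknown, and with 2 libraries per group a single library moves many values, so small differences were not resolvable. The sample names number replicates from 1, while the table columns end in a digit from 0, so they were not matched. A replicate block on the column digit, chosen after seeing the data, gave 5 members called from 0 to 96 h in HMGN1-OE cells, with Cebpb lost (adjusted p = 0.0664, limma), and changed no other call of a member. Libraries of one digit did not deviate together, with correlations of -0.37 to 0.18 over genes between the 15 pairs of groups, 8 of them negative. In all, 54 values of single genes reversed, 27 lost and 18 gained their call and 1341 stayed, and 31 counts or ratios moved and 553 stayed. The cause was not tested except where named. Centring and quantile normalization, which remove the fall of most genes, each gave 6 members called from 36 to 96 h and 6 from 0 to 96 h in wild-type cells, and 5 from 36 to 96 h in HMGN1-OE cells. With only the groups compared, 1 member (Cebpe, adjusted p = 0.00183, limma) was called from 0 to 36 h in HMGN1-OE cells, as it was without either wild-type library at 96 h (adjusted p = 0.0242 and 0.0254).

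For lists in wild-type cells from 0 to 96 h, fitting only the groups compared left 11 partners, 8 transcription factors, 3 inflammatory and 11 amino acid stress genes called. For the inflammatory list, a mean of at least 5 FPKM left 3 for wild-type and 4 for HMGN1-OE cells, where fewer genes were tested, and centring and quantile normalization gave 14 and 13. Of the 5 genes most like each member, the deposited scale shared 2 for Cebpa, 1 for Cebpb, 0 for Cebpd, 1 for Cebpe, 1 for Cebpg and 2 for Cebpz.

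Reversed log2 values are given with centring first and quantile normalization second. Between genotypes at 0 h Cebpz was 0.0061 with centring. At 36 h Cebpg was 0.041 and 0.033 and Cebpz 0.064 and 0.055. At 96 h Cebpb was -0.27 and -0.36, Cebpd -0.20 and -0.28, and Cebpe -0.12 and -0.21. From 0 to 36 h in wild-type cells Cebpg was -0.073 and -0.068, and Cebpa -0.016 with quantile normalization. From 36 to 96 h in wild-type cells Cebpb was 1.89 and 2.13, Cebpd 2.06 and 2.16, and Cebpe 1.95 and 2.24. For the interaction from 0 to 36 h Cebpa was 0.19 and 0.19, Cebpg 0.090 and 0.084, and Cebpz 0.058 and 0.068.

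Leaving out each library in turn gave 0 to 1 members called from 0 to 36 h and 2 to 6 from 0 to 96 h in HMGN1-OE cells, with 8 to 19 partners and 6 to 15 amino acid stress genes called from 0 to 96 h. Between genotypes at 0 h Cebpg ranged from -0.64 to 0.28 and Cebpz from -0.60 to 0.35. At 96 h Cebpb ranged from -0.10 to 0.38, Cebpd from -0.33 to 0.74, Cebpe from -0.53 to 1.10 and Cebpz from -0.056 to 1.18. In wild-type cells from 0 to 36 h Cebpb ranged from -0.092 to 1.14, Cebpd from -0.22 to 1.24 and Cebpg from -0.053 to 0.86. From 36 to 96 h Cebpd ranged from -0.80 to 0.27 and Cebpe from -1.19 to 0.44, and from 0 to 96 h Cebpb from -0.53 to 0.71 and Cebpd from -0.48 to 0.98. In HMGN1-OE cells from 0 to 36 h Cebpg ranged from -0.22 to 0.31 and Cebpz from -0.13 to 0.42. The interaction from 0 to 36 h ranged from -0.34 to 0.89 for Cebpb, -0.66 to 0.80 for Cebpd, -0.82 to 0.10 for Cebpg and -0.87 to 0.087 for Cebpz.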
